A study of Caenorhabditis elegans with 12 samples.

Results

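The transcripts described here are those of 10 transcription factor genes that assign cell fates in the early Caenorhabditis elegans embryo: hlh-1, pal-1, elt-1, pha-4, tbx-37, tbx-38, end-1, end-3, elt-7 and elt-2. They were chosen by name, from their known roles in embryonic lineages, but with earlier results of these data known. They are 10 of the 13481 genes tested, and the shares over all genes set beside their counts are descriptions. Their RNA was measured on 12 single-colour microarrays of total RNA from whole adult worms, 3 arrays for each of 4 groups. All worms were grown at 15 °C. The groups were daf-2(e1370) adults moved to 25 °C for 12 h, and N2 adults kept at 15 °C, moved to 25 °C for 3 h, or moved to 25 °C for 12 h. N2 is the wild-type strain, and e1370 is a temperature-sensitive allele of daf-2, the worm's insulin-like receptor gene. There were no daf-2 arrays at 15 °C or after 3 h, so strain could be compared at 1 temperature and 1 time only. The labels give the worms as well-fed adults, and the series' design text as young adults at the shift. The age at collection and the number of embryos that the worms carried are not given in the sources used here.

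In the worm embryo, maternal proteins divided unequally among the first cells switch on zygotic transcription factors, and each of those starts the program of a tissue. A hermaphrodite keeps fertilized eggs in its uterus while they begin to develop, so total RNA from adults with eggs contains RNA of early embryos. Several of the 10 genes are also used after embryogenesis: elt-2 and elt-7 in the intestine, pha-4 in the pharynx, intestine and gonad, hlh-1 in muscle, and pal-1 as a maternal mRNA stored in the germ line. In whole worms, a change in the number of cells or embryos that hold a transcript and a change in RNA per cell cannot be told apart.

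Each signal was divided by the 75th percentile of its own array and put on the log2 scale, so 0 marks a probe at that percentile and each unit is a doubling. Levels of different genes come from different probes and are not set against each other. The arrays form 3 replicate sets, named A, B and 1 after their titles, and each set was 1 slide with the 4 groups at fixed places, so place on the slide and group cannot be told apart. Per the file headers, set 1 was scanned on a different day from the others. The share of probes well above background was 80.7% to 84.8% on set 1 arrays, and 55.4% to 61.1% on those of sets A and B. The source names number both A and 1 as replicate 1, and nothing states that replicates were separate cultures, so the p-values speak only of the spread among these 12 arrays, which may be technical. A gene is called changed when its adjusted p in limma was under 0.05. Limma fitted a linear model to all 12 arrays, with Benjamini-Hochberg adjustment over all genes tested. Counts at an unadjusted p under 0.05 are descriptions, since the share of all genes at that threshold was not taken. Sperm genes differed widely within groups: the summed relative signal of 28 tested sperm markers spanned 31.9 to 181 on daf-2 arrays, 78.6 to 1610 on N2 arrays at 15 °C, 251 to 1500 after 3 h and 139 to 1080 after 12 h. In limma 0 of these 28 were called in the N2 comparisons (0 at an unadjusted p under 0.05), where 1.02% to 2.64% of all genes were. For daf-2 against N2 1 was called, spe-41 (−1.62), the medians within sets A, B and 1 being −1.44, −5.33 and 0.31, and the part of this spread in the results below was not tested.

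All 10 genes had a probe that passed the filter for detection, and for 8 of them it was well above background on each of the 12 arrays. The exceptions were end-1, above background on 11 arrays, and tbx-38, above background on 10, and the arrays below it were in both cases from N2 after 3 h at 25 °C. The genes lie on 5 chromosomes: hlh-1 on II, pal-1, tbx-37 and tbx-38 on III, elt-1 on IV, pha-4, end-1, end-3 and elt-7 on V, and elt-2 on X. The gene pair end-1 and end-3 has 4 annotated genes between its members, whereas tbx-37 and tbx-38 have 136. Over the 12 arrays the log2 signal spanned the widest range for pha-4 (3.55) and hlh-1 (3.51), and the narrowest for pal-1 (1.05) and end-3 (0.98).

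**Figure D1:**
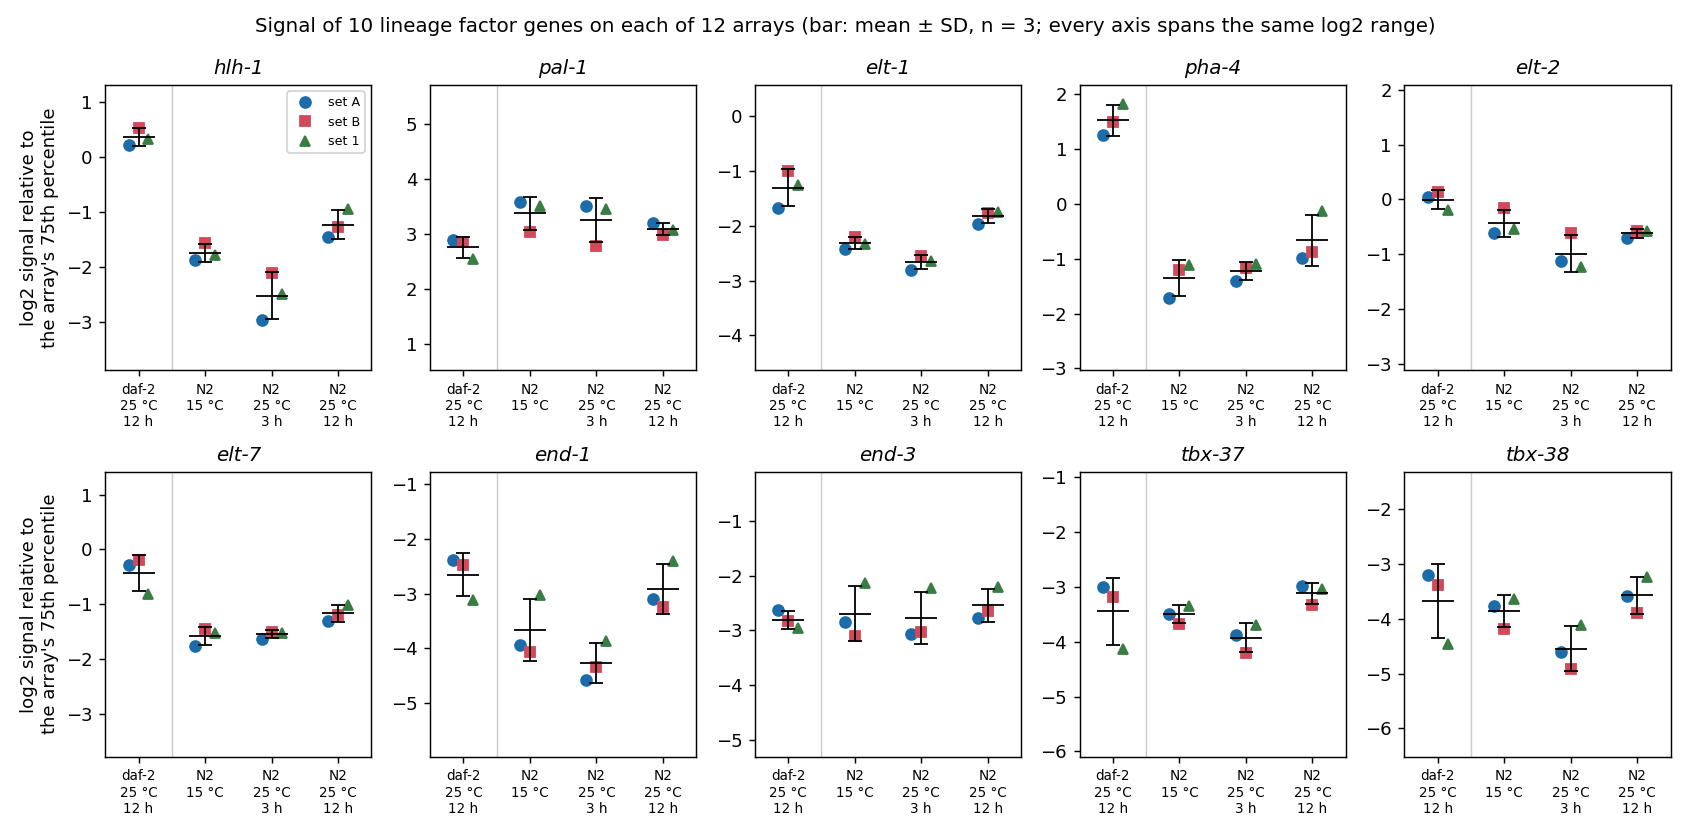
Log2 signal over the 75th percentile of the array (vertical axis) of each of the 10 genes on the 12 arrays, with symbols for replicate sets A, B and 1 and bars for the mean ± SD of the 3 arrays of a group. Every vertical axis spans the same log2 range: hlh-1 and pha-4 spread over 3.51 and 3.55 with their daf-2 arrays on top, and end-3 over 0.98 with its groups mixed.

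The first question was how these genes behaved in N2 worms over the shift from 15 °C to 25 °C. After 3 h at 25 °C, 8 of the 10 genes had lower means than at 15 °C and 4 had groups that did not overlap, all of them lower after 3 h (hlh-1, elt-1, elt-2 and tbx-37), but 0 of the 10 passed the test in limma. At an unadjusted p under 0.05 there were 2, hlh-1 and elt-2. Over all genes tested, 1.02% were called in this comparison (0.705% as higher and 0.312% as lower), and 5% had non-overlapping groups with the lower values after 3 h. The median log2 difference over the 10 genes was −0.39 (−0.38, −0.31 and −0.33 within sets A, B and 1), against 0.02 over all genes.

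Between 3 h and 12 h at 25 °C the genes lay the other way. After 12 h, 9 of 10 genes had higher means than after 3 h, 7 had groups that did not overlap, and 2 were called, hlh-1 and elt-1. The share of all genes called was 2.11%, 1.55% called as higher, and 10.2% had non-overlapping groups with the higher values after 12 h. The median difference was 0.69 on the log2 scale (0.63, 0.58 and 0.77 within sets A, B and 1), against −0.02 over all genes. Set against 15 °C directly, 12 h at 25 °C gave 8 genes with higher means and 5 without overlap, all higher (hlh-1, elt-1, elt-7, pha-4 and tbx-37), with a median difference of 0.40. None of the 10 was called in that comparison by limma (4 at an unadjusted p under 0.05), where 2.64% of all genes were, 1.88% as higher, and 12.8% were higher without overlap. With the replicate set as a term in the fit, 2 were called, elt-1 (adjusted p = 0.0489 in limma) and pha-4 (adjusted p = 0.0314 in limma), and 7.59% of all genes, 5.1% as higher. These 3 comparisons share groups of arrays, so they are not independent of each other.

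The muscle factor hlh-1, the worm's MyoD homologue, showed the pattern most plainly. In N2 worms its log2 signal in sets A, B and 1 was −1.88, −1.56 and −1.78 at 15 °C, −2.97, −2.11 and −2.49 after 3 h, and −1.46, −1.27 and −0.95 after 12 h. The 3 groups did not overlap, with the 3 h arrays lowest and the 12 h arrays highest. The difference of 12 h and 3 h was 1.29 ± 0.23 on the log2 scale (SE, n = 3 each), a 2.45-fold higher signal after 12 h, with an adjusted p of 0.0255 in limma. It was 1.51, 0.83 and 1.54 within sets A, B and 1. A second hlh-1 probe gave 1.45 ± 0.23 (adjusted p = 0.0246 in limma over all kept probes). The call was lost without the set A array at 3 h (adjusted p = 0.0991 in limma) and without any 1 of the 12 h arrays of sets A, B and 1 (adjusted p = 0.0662, 0.0836 and 0.0795). It was also lost under median centring (0.0574), with no filter on dim probes (0.0622), in a fit of sets A and B alone (0.162) and in a fit of the 2 groups alone (0.131), these being adjusted p-values in limma too. The call was kept with the replicate set as a term in the fit (adjusted p = 0.00844 in limma). The difference of 3 h and 15 °C, −0.78 ± 0.23, did not pass (adjusted p = 0.200 in limma).

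The other regulator of posterior muscle, pal-1, is the worm's Caudal homologue, whose maternal mRNA is translated in posterior cells and acts upstream of hlh-1 there. On the log2 scale it gave 3.59, 3.03 and 3.52 at 15 °C, 3.52, 2.79 and 3.45 after 3 h, and 3.21, 2.99 and 3.07 after 12 h. The 3 N2 groups overlapped. The difference of 12 h and 3 h was −0.16, with a 95% confidence interval of −0.67 to 0.34, so a change of the size measured for hlh-1 lies outside the interval. A second pal-1 probe gave −0.07 for the same difference.

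The epidermal factor elt-1, a GATA factor that starts the hypodermal program, followed the order of hlh-1. Its log2 signals were −2.42, −2.20 and −2.34 at 15 °C, −2.80, −2.55 and −2.65 after 3 h, and −1.97, −1.77 and −1.74 after 12 h. All 3 groups were separate, lowest after 3 h and highest after 12 h. It rose 1.79-fold in signal after 12 h against 3 h, a log2 difference of 0.84 ± 0.18 (SE, n = 3 each, adjusted p = 0.0463 in limma), and the within-set differences of 0.84, 0.78 and 0.91 lay close together. This call stood near the threshold and was lost without any 1 of the 6 arrays compared, with adjusted p-values in limma of 0.0861 to 0.182. It was lost as well under quantile normalization (0.0582), normexp (0.107), median centring (0.263), no filter (0.105), sets A and B alone (0.244) and the 2 groups alone (0.123). The call was kept with the replicate set as a term in the fit (adjusted p = 0.0115 in limma). The difference of 12 h and 15 °C was 0.49 ± 0.18 (adjusted p = 0.205 in limma). That of 3 h and 15 °C was −0.35 ± 0.18 (adjusted p = 0.661 in limma).

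Among the pharyngeal factors, pha-4 is the FoxA factor that gives the whole pharynx its identity, and the T-box genes tbx-37 and tbx-38 act redundantly in descendants of the anterior founder cell to allow its mesoderm. On the log2 scale pha-4 gave −1.72, −1.21 and −1.12 at 15 °C, −1.41, −1.16 and −1.10 after 3 h, and −0.98, −0.87 and −0.13 after 12 h. The first 2 of these groups overlapped, and the 12 h arrays lay above both. The difference of 12 h and 3 h was 0.56 ± 0.26 (adjusted p = 0.431 in limma), and set 1 held the highest of the 12 h values. Other pha-4 probes did not follow this one closely. Of its 5 probes 3 passed the filter, and the other 2 of those gave larger differences of 12 h and 3 h, 1.77 ± 0.38 (adjusted p = 0.0579 in limma over all kept probes) and 1.52 ± 0.43 (adjusted p = 0.149 in limma). Those 2 probes also turned the sign of the difference of 3 h and 15 °C, −0.64 and −0.59 against 0.13 for the first, but they were above background in 1 of 3 arrays at 15 °C and after 3 h, that of set 1.

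Both T-box genes were dim. In N2, tbx-37 gave log2 signals of −3.49, −3.67 and −3.34 at 15 °C, −3.88, −4.21 and −3.69 after 3 h, and −2.99, −3.33 and −3.04 after 12 h. For tbx-38 it was −3.76, −4.19 and −3.63 at 15 °C, −4.61, −4.92 and −4.11 after 3 h, and −3.59, −3.90 and −3.23 after 12 h, with the first 2 of the 3 h values not well above background. In both genes the 12 h arrays lay above all 3 h arrays. The differences of 12 h and 3 h were 0.81 ± 0.28 for tbx-37 and 0.97 ± 0.35 for tbx-38, and neither passed (adjusted p = 0.215 and 0.235 in limma).

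The endoderm factors are 4 GATA factors that act in sequence: end-3 and end-1 are switched on briefly in the founder cell of the intestine, and elt-7 and elt-2 follow, elt-2 staying on in the gut for life. In N2, end-1 gave log2 signals of −3.93, −4.06 and −3.02 at 15 °C, −4.58, −4.34 and −3.86 after 3 h, the first of these not well above background, and −3.10, −3.24 and −2.40 after 12 h. The 12 h arrays lay above all 3 h arrays, and set 1 was highest in each N2 group. The 12 h signal was 2.54-fold that of 3 h, a log2 difference of 1.34 ± 0.34 that was as large as that of hlh-1 and less precise, and it did not pass (adjusted p = 0.0832 in limma). Within sets A, B and 1 it was 1.48, 1.10 and 1.46. In a fit of sets A and B alone it was 1.29 and was called (adjusted p = 0.0198 in limma). It was not called in fits of sets A and 1 (1.47, adjusted p = 0.394 in limma) or sets B and 1 (1.28, adjusted p = 0.726).

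For its neighbour end-3 the N2 groups lay together. The log2 signals of end-3 were −2.84, −3.11 and −2.13 at 15 °C, −3.06, −3.03 and −2.22 after 3 h, and −2.78, −2.65 and −2.20 after 12 h. Set 1 was highest throughout, and the groups overlapped. The difference of 12 h and 3 h was 0.23, with a 95% confidence interval of −0.44 to 0.89.

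Neither of the later endoderm genes was called in N2. The log2 signal of elt-7 was −1.77, −1.46 and −1.52 at 15 °C, −1.63, −1.50 and −1.52 after 3 h, and −1.30, −1.20 and −1.01 after 12 h. The 12 h arrays lay above the rest by a small step, 0.38 ± 0.18 over 3 h (adjusted p = 0.464 in limma). For elt-2 the log2 signal was −0.61, −0.15 and −0.55 at 15 °C, −1.12, −0.61 and −1.24 after 3 h, and −0.71, −0.57 and −0.57 after 12 h. For elt-2 the 3 h group did not overlap the 15 °C group, the highest 3 h and the lowest 15 °C array being close, with a difference of −0.55 ± 0.20 (adjusted p = 0.338 in limma), and the 12 h arrays overlapped with both.

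**Figure D2:**
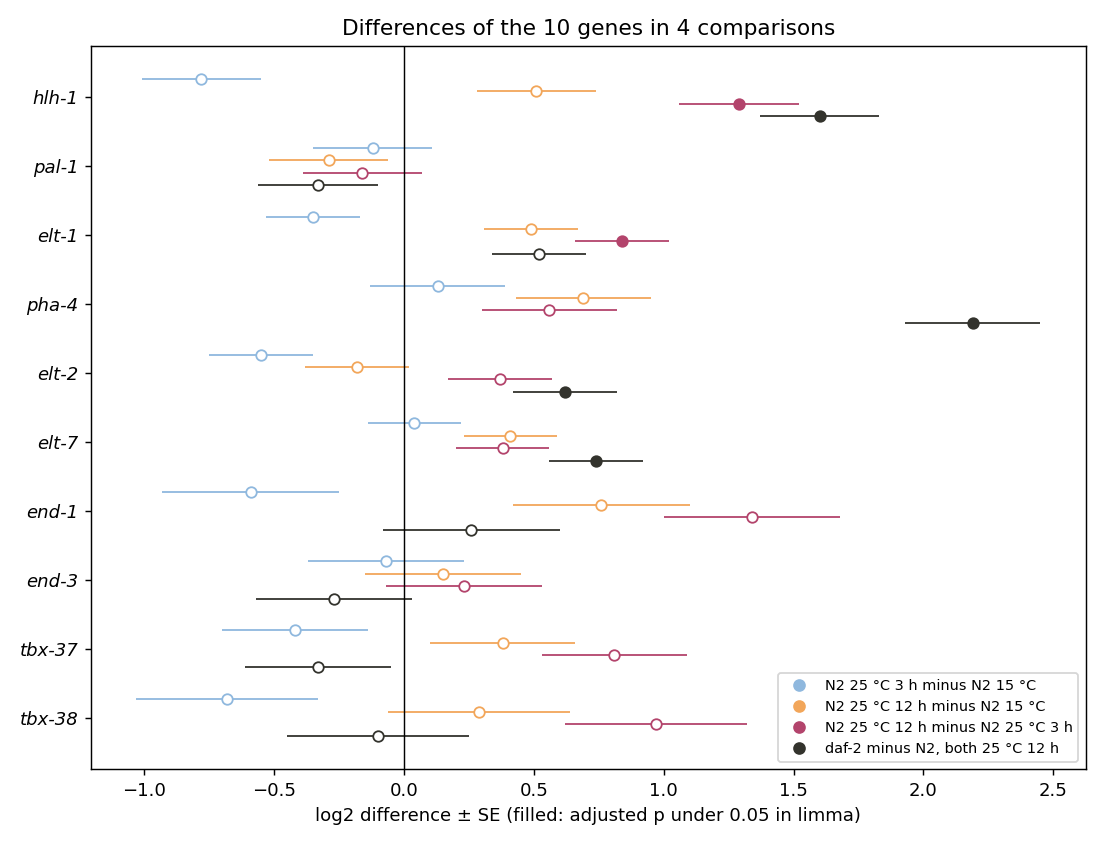
Log2 difference ± SE (horizontal axis) of each gene in the 4 comparisons, with filled points for an adjusted p under 0.05 in limma. Filled points mark hlh-1 and elt-1 for N2 12 h minus 3 h, and pha-4, hlh-1, elt-7 and elt-2 for daf-2 minus N2.

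The second question was how daf-2 worms differed from N2 worms after the same 12 h at 25 °C. Of the 10 genes 4 were called, all higher in daf-2: pha-4, hlh-1, elt-7 and elt-2. Over all genes 21.9% were called, 14.5% as higher and 7.42% as lower, so calls were common in this comparison. Groups did not overlap for 6 of the 10 genes, 5 of them higher in daf-2 and 1 lower, against 43.1% of all genes in either direction, 21.9% higher and 21.2% lower. With the replicate set as a term, 5 genes were called, all higher, elt-1 being the addition. In that fit 37.3% of all genes were called, 2690 of the 13481 as higher and 2337 as lower. The N2 12 h arrays of this comparison are those used above, and the median difference over the 10 genes, 0.39, varied between sets: 0.55, 0.74 and −0.17 in A, B and 1, against −0.14 over all genes.

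The largest difference was in pha-4. Its log2 signal was 1.26, 1.49 and 1.83 in daf-2 worms of sets A, B and 1, against −0.98, −0.87 and −0.13 in N2 worms. Every daf-2 array lay over 1 unit above every N2 array at any temperature. The difference was 2.19 ± 0.26 on the log2 scale (SE, n = 3 each), a 4.56-fold higher signal in daf-2, with an adjusted p of 0.000385 in limma. The 2 other kept pha-4 probes gave 1.68 and 1.70, and both passed as well (adjusted p = 0.0121 and 0.0219 in limma over all kept probes).

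For hlh-1 the log2 signal was 0.23, 0.54 and 0.34 in daf-2 worms, against −1.46, −1.27 and −0.95 in N2 worms. The groups were well apart, and the difference of 1.60 ± 0.23, a 3.03-fold higher signal in daf-2, had an adjusted p of 0.000984 in limma. The second hlh-1 probe gave 1.70 ± 0.23 (adjusted p = 0.000841 in limma over all kept probes). Both pha-4 and hlh-1 were called under all 19 alternatives run, with adjusted p-values of up to 0.0322 and 0.0323.

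Of the endoderm genes, elt-7 and elt-2 were called in daf-2. The log2 signal of elt-7 was −0.29, −0.19 and −0.81 in daf-2 worms, against −1.30, −1.20 and −1.01 in N2 worms. It was 1.67-fold higher in daf-2 (0.74 ± 0.18, adjusted p = 0.0169 in limma), with a difference of 1.01 in sets A and B and 0.20 in set 1. That of elt-2 was 0.04, 0.14 and −0.20 in daf-2 worms, against −0.71, −0.57 and −0.57 in N2 worms, a 1.53-fold higher signal in daf-2 (0.62 ± 0.20, adjusted p = 0.0486 in limma). The 2 groups did not overlap in either gene. Centring the arrays on their median, which moved the median difference of all genes to −0.38, ended both calls (adjusted p = 0.270 for elt-7 and 0.361 for elt-2 in limma). The elt-2 call was also lost without any 1 of the 6 arrays (adjusted p = 0.0516 to 0.153 in limma), and the elt-7 call without the daf-2 or the N2 array of set A or B (adjusted p = 0.0541 to 0.0727).

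Neither of the early endoderm genes was called over the 3 sets. Signals of end-1, as log2 values, were −2.39, −2.47 and −3.11 in daf-2 worms, against −3.10, −3.24 and −2.40 in N2 worms. In sets A and B it was higher in daf-2 by 0.71 and 0.77, and in set 1 the difference was −0.71. The mean difference of 0.26 had a 95% confidence interval of −0.51 to 1.02 (adjusted p = 0.591 in limma), and a fit of sets A and B alone gave 0.74 (adjusted p = 0.0229 in limma), where elt-2, with a like difference of 0.74, was not called (adjusted p = 0.0826 in limma). The interval of end-1 holds the differences of elt-7 and elt-2, and whether the genes differ in this was not tested. For end-3 the log2 signal was −2.63, −2.83 and −2.96 in daf-2 worms, against −2.78, −2.65 and −2.20 in N2 worms, and the interval of the difference was −0.93 to 0.40.

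The T-box genes also split by set. For tbx-37 the log2 signal was −3.01, −3.19 and −4.14 in daf-2 worms, against −2.99, −3.33 and −3.04 in N2 worms. That of tbx-38 was −3.20, −3.39 and −4.45 in daf-2 worms, against −3.59, −3.90 and −3.23 in N2 worms. In set 1 the difference of daf-2 and N2 was −1.10 for tbx-37 and −1.22 for tbx-38, and in sets A and B the differences were −0.02 and 0.14 for tbx-37, and 0.39 and 0.52 for tbx-38. Neither gene was called (adjusted p = 0.399 and 0.833 in limma).

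The remaining genes were elt-1 and pal-1. The log2 signal of elt-1 was −1.67, −1.0 and −1.26 in daf-2 worms, against −1.97, −1.77 and −1.74 in N2 worms. Its groups did not overlap, and the difference of 0.52 ± 0.18 did not pass (adjusted p = 0.0656 in limma), but did with the replicate set as a term (adjusted p = 0.0131 in limma). For pal-1 the log2 signal was 2.89, 2.85 and 2.54 in daf-2 worms, against 3.21, 2.99 and 3.07 in N2 worms. It was the single gene of the 10 whose daf-2 arrays all lay below the N2 arrays, with a difference of −0.33 ± 0.23 that did not pass (adjusted p = 0.307 in limma). In set 1, 4 of the 10 genes were lower in daf-2 by more than 0.7 on the log2 scale: end-1, end-3, tbx-37 and tbx-38.

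**Figure D3:**
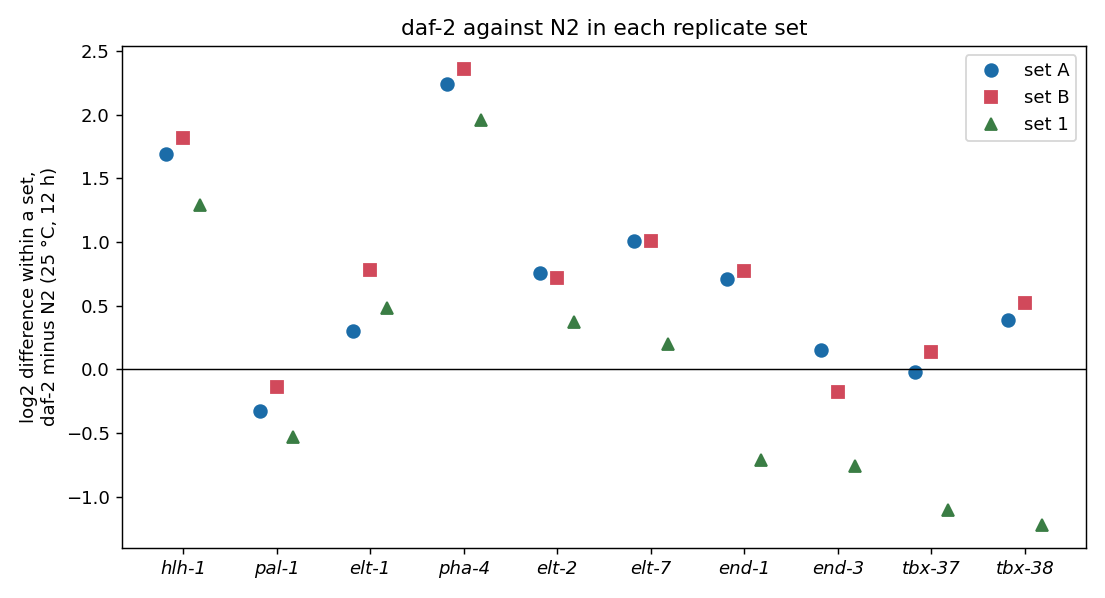
Log2 difference of daf-2 and N2 after 12 h at 25 °C (vertical axis) for each gene within replicate sets A, B and 1. The 3 sets lie together for pha-4 (2.24, 2.36 and 1.96) and hlh-1 (1.69, 1.82 and 1.29), and set 1 lies apart and below 0 for end-1, tbx-37 and tbx-38.

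Other genes of the same regulatory steps were counted beside the 10. The 22 maternal lineage specifiers, such as the polarity gene par-2 and the Notch receptor gene glp-1, act in the early embryo from RNA made in the germ line. In N2 they had 0 calls in limma in each of the 3 comparisons, and 0 at an unadjusted p under 0.05. Their medians were 0.00 for 3 h against 15 °C, −0.02 for 12 h against 15 °C and −0.03 for 12 h against 3 h. Of all genes, 1.02%, 2.64% and 2.11% were called in these comparisons. In daf-2, 0 were called higher and 2 lower, par-2 (log2 difference −0.86) and glp-1 (−0.69), with a median of −0.39. Over all genes 14.5% were called higher and 7.42% lower, and the median was −0.14. The summed relative signal of the 22 specifiers was 177 to 249 on daf-2 arrays, against 263 to 333 on N2 arrays after 12 h, without overlap.

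Of 34 tested other zygotic lineage factors, which specify muscle, epidermal, neuronal and regional fates, 6 were called higher after 12 h than after 3 h and 0 lower, and 20 had an unadjusted p under 0.05. Among them were the nuclear receptor gene nhr-25 (log2 difference 1.64) and the forkhead gene pes-1 (1.56). The neurogenin homologue ngn-1 (1.93) and the proneural gene hlh-14 (1.92) were called too, but their sizes are uncertain, since ngn-1 was well above background on 2 arrays at 12 h and 1 at 3 h, and hlh-14 on 3 at 12 h and 2 at 3 h. The list's median was 0.82, and 21 of the 34 had non-overlapping groups, all higher after 12 h. Over all genes, 1.55% were called higher in this comparison and 10.2% were higher without overlap. Against 15 °C, 0 were called after 3 h (4 at an unadjusted p under 0.05, median −0.23), and 4 were called higher after 12 h (median 0.70): hnd-1 by 1.56, hlh-14 by 1.41 (above background on 2 of the 3 arrays at 15 °C), tlp-1 by 1.06 and ceh-43 by 0.98. Over all genes 1.88% were called higher there. With the replicate set as a term, the calls were 14 for 12 h against 3 h and 10 for 12 h against 15 °C, all higher, where 3.96% and 5.1% of all genes were called higher. In daf-2 against N2, 20 were called higher and 1 lower, with a median of 1.04, and 14.5% of all genes were called higher. Called genes included nhr-25 (2.14) and the pharyngeal muscle gene ceh-22 (2.52), both above background on all 6 arrays. For 4 of the 20, among them the atonal homologue lin-32 (2.62) and the Msx homologue vab-15 (2.12), 1 of the 3 N2 arrays was not well above background, so their sizes are uncertain. The 1 called lower was the T-box gene tbx-9 (−0.70). The list's medians within sets A, B and 1 were 1.09, 1.20 and 0.51, the lowest in set 1 as for the 10 genes.

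The early zygotic embryo list holds 22 tested genes taken as early zygotic transcripts. Among them are sdz genes, which depend on SKN-1, and vet genes, very early transcripts. For 12 h against 3 h, 10 were called higher and 0 lower, with medians of 1.39, 1.38 and 1.30 in sets A, B and 1. The called genes included sdz-6 (2.18), sdz-25 (1.93) and sdz-28 (1.92), and 1.55% of all genes were called higher. The median for 3 h against 15 °C was −0.48 and for 12 h against 15 °C it was 0.76, with 1 call each, sdz-6 higher, a gene above background on 1 of the 3 arrays at 15 °C. Over all genes 0.705% were called higher for 3 h against 15 °C and 1.88% for 12 h against 15 °C. With the replicate set as a term, 4 of the list were called higher for 12 h against 15 °C and 12 for 12 h against 3 h. The shares of all genes called higher in that fit were 5.1% and 3.96%. For daf-2 against N2, 2 were called higher, sdz-19 (1.56, above background on 1 of the 3 N2 arrays) and sdz-4 (1.06), and 1 lower, sdz-6 (−2.99, above background on 1 of the 3 daf-2 arrays), with medians of 0.83, 0.76 and −0.43. Over all genes 14.5% were called higher and 7.42% lower. The list's summed relative signal was 35.3 to 57.9 on daf-2 arrays, against 16.4 to 24.7 on N2 arrays at 15 °C, 13.9 to 17.0 after 3 h and 27.5 to 39.9 after 12 h. The 3 h sums and the 12 h sums of N2 did not overlap. Bright probes weigh most in such sums, and pes-2.1 was among them, with mean log2 signals of 2.57 after 3 h and 4.01 after 12 h. The list shares pes-1 and ceh-51 with the other zygotic lineage factors, so the counts are not separate.

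Markers of differentiated tissues were set beside the 10 genes. None of 12 body wall muscle genes, 11 intestinal genes, 9 pharyngeal genes or 8 epidermal genes was called in limma in any N2 comparison, and at most 1 gene per list and comparison had an unadjusted p under 0.05. Of all genes, 1.02% were called for 3 h against 15 °C. The shares were 2.64% for 12 h against 15 °C and 2.11% for 12 h against 3 h. At such shares, lists this short can hold no call. With the replicate set as a term, 1 muscle gene and 1 pharyngeal gene were called lower for 12 h against 15 °C. In that fit 335 of the 13481 genes tested were called lower. The medians of the muscle, intestinal, pharyngeal and epidermal lists for 12 h against 3 h were 0.00, −0.15, −0.11 and −0.04. In daf-2, 0 of the 12 muscle genes were called in limma (1 at an unadjusted p under 0.05), with a median of −0.17. Of the 11 intestinal genes 2 were called higher, the gut esterase gene ges-1 (log2 difference 2.30) and elt-2 itself, and 3 lower, the intermediate filament gene ifb-2 (−1.47), the proton pump gene vha-6 (−1.41) and the intestinal actin gene act-5 (−1.17). Of the 9 pharyngeal genes 1 was called, ceh-22, which was also counted among the other zygotic lineage factors above. Of the 8 epidermal genes 2 were called, the cuticle collagen genes dpy-7 (4.30, above background on 1 of the 3 N2 arrays) and sqt-3 (3.58), both higher. The epidermal list shares elt-3 and lin-26 with the other zygotic lineage factors. Of 17 oocyte and eggshell genes, which also follow the germ line, 1 was called in N2, the caveolin gene cav-1, higher by 1.39 after 12 h than after 3 h. In daf-2 against N2, cav-1 was higher by 1.49, and rme-2 (−0.81), cbd-1 (−0.69) and puf-11 (−0.60) were lower, with a median over the 17 of −0.38. Over all genes 1.55% were called higher for 12 h against 3 h. For daf-2 against N2 14.5% were called higher and 7.42% lower, with a median of −0.14.

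**Figure D4:**
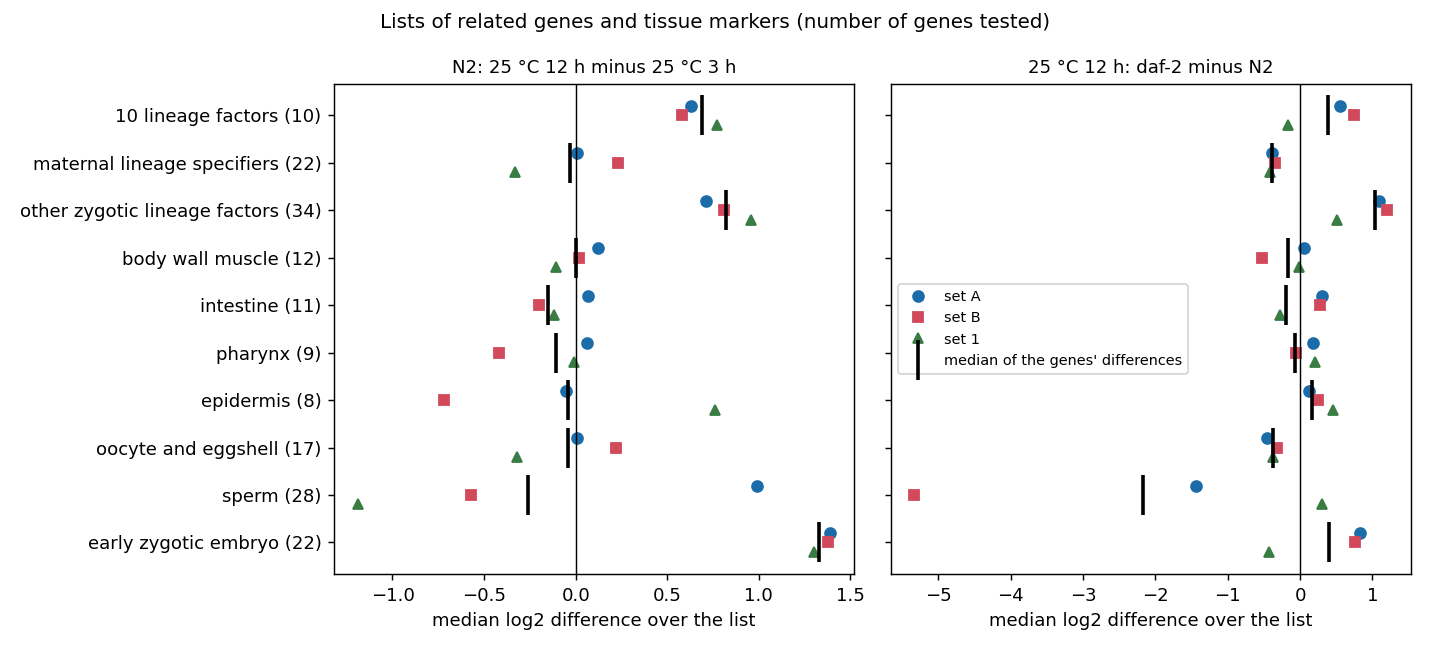
Median log2 difference (horizontal axes, which differ in range) over the 10 genes and 9 lists, for N2 12 h minus 3 h and for daf-2 minus N2, with symbols for sets A, B and 1, bars for the median of the genes' fitted differences, and the number of genes tested beside each name. For 12 h minus 3 h, the 10 genes, the other zygotic lineage factors and the early zygotic embryo genes have all 3 sets above 0.5. For daf-2 minus N2 set 1 lies below sets A and B in the same 3 lists. It does so too for the intestinal genes (−0.27 against 0.30 and 0.28) and, narrowly, for the maternal lineage specifiers (−0.42 against −0.39 and −0.35).

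Likeness was sought among 6939 genes that were well above background on every array and had a name other than a sequence name. Detected genes without such a name were not compared. The genes most like hlh-1 over the 12 arrays, by Pearson's correlation of log2 signal, were sptf-1 (0.977), nhr-25 (0.973), unc-120 (0.972), gana-1 (0.970) and ced-11 (0.966). Of these, unc-120 is the worm's serum response factor gene, another muscle regulator. Over the 9 N2 arrays alone the coefficients were 0.910, 0.877, 0.958, 0.881 and 0.890. The arrays share slides and groups, and these values are descriptions. Among the 10 genes, hlh-1 correlated at 0.956 with elt-1, 0.928 with pha-4 and 0.915 with elt-7, at −0.04 with end-3 and at −0.73 with pal-1. Over the 9 N2 arrays these were 0.955, 0.648, 0.743, 0.282 and −0.48. For elt-2 the nearest genes were dhs-20 (0.965), acds-10 (0.947), spp-8 (0.939), clc-15 (0.935) and lips-17 (0.930), and it correlated at 0.867 with hlh-1, 0.756 with elt-7 and 0.590 with end-1 over the 12 arrays. Over the 9 N2 arrays these were 0.704, 0.238 and 0.264.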

How the data were processed

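Per the labels, RNA was isolated with an RNeasy kit, amplified as cRNA and labelled with Cy3. Per the file headers, spots were read with Agilent Feature Extraction 10.10.1.1. The deposited processed signal is a linear intensity, from which, per the file headers, that software had subtracted background. The deposited flags, other values of 0 or 1, mark spots that are saturated, uneven or not well above background. The deposited series table holds the same intensity values scaled by a constant for each array, with a largest log2 deviation of 0.0373.

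Of 43603 probes, 34320 were matched to 1 gene through a table of the WBcel235 assembly, by sequence name or accession, and used for names, chromosomes and neighbours only. From the log2 of each processed signal the 75th percentile of its array was subtracted. Kept were 26558 probes that the flags put well above background in every array of 1 or more groups, and the probe with the highest mean signal stood for its gene, leaving 13481 genes. Differences between groups were tested with limma 3.58.1 (R 4.3.3), fitted to all 12 arrays with 1 mean per group, two-sided, with Benjamini-Hochberg adjustment over genes. A value on an array where its probe was not well above background was kept as measured. The number of arrays, 3 a group, limits the precision. The procedure was tested on simulated data.

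The 10 genes and the 9 lists of related genes and markers were chosen with earlier results of these data known. The text names all 10 genes, up to 5 called members of a list per comparison, and the 5 genes most like hlh-1 and elt-2 by correlation over the arrays.

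The replicate letters pair the arrays of a slide. Deviations from group means correlated across genes at 0.445 to 0.893 between N2 arrays of a set, and at 0.390, −0.390 and 0.132 in sets A, B and 1 for daf-2 and N2, where a shared slide is the sole basis of the pairing. Alternatives were quantile normalization, normexp with an offset of 50, median centring, the authors' series table, other filters and probe rules, the replicate block (fixed or random), the groups compared alone, pairs of sets, and single arrays left out. Fits of sets A and 1, fits of sets B and 1, and fits of other probes were added after the data were seen. Python 3.11.15 with numpy 2.4.6 and pandas 2.3.3 made the tables, and matplotlib 3.10.9 the plots.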

Additional observations from a re-analysis of the deposited data

How the results depend on the processing

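Over the 40 differences of the 10 genes, 691 values from alternatives kept their direction and side of the threshold, 44 kept the direction and lost the call, 12 gained it and 21 turned sign, all for differences that were not called. Most of the 40 were not called and had no call to lose. For 12 h against 3 h the call was lost 14 times and kept 5 times for elt-1, and lost 10 and kept 10 times for hlh-1. For daf-2 against N2 it was lost 12 and kept 7 times for elt-2, and lost 8 and kept 11 times for elt-7. The cause of these changes was not tested. The number of arrays limits what can be called, and dim probes (end-1, tbx-37, tbx-38 and the 2 further pha-4 probes) lie near the background of sets A and B.

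Of the 10 genes, the number called for N2 3 h against 15 °C was 1 with a random replicate set (hlh-1), and for 12 h against 15 °C it was 2 with the replicate block and 2 with a random replicate set. For 12 h against 3 h (2 called) it was 1 with quantile normalization and with normexp (hlh-1, not elt-1), 1 with sets A and B (end-1, neither hlh-1 nor elt-1), 0 with median centring, without the filter, with sets A and 1, with sets B and 1 and with the 2 groups alone, and 0 to 1 when single arrays were left out. For daf-2 against N2 (4 called) it was 2 with median centring, sets A and 1, sets B and 1 and the 2 groups alone, and 2 to 3 without single arrays. The replicate block changed no other count of the 10 genes by over 1.5 times.

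Of all genes, 137 were called for 3 h against 15 °C, with 37 under median centring, 48 without the filter, 319 with the replicate block, 390 with a random replicate set, 48 with sets A and B, 1 with sets A and 1, 1 with sets B and 1, 0 with the 2 groups alone, and 42 to 79 without single arrays. For 12 h against 15 °C the count was 356, with 99 under median centring, 162 without the filter, 1023 with the block, 1123 with a random set, 0 with sets A and 1, 0 with sets B and 1, 93 with the 2 groups alone, and 128 to 244 without single arrays. For 12 h against 3 h it was 285, with 59 under median centring, 47 without the filter, 726 with the block, 835 with a random set, 0 with sets A and 1, 0 with sets B and 1, 10 with the 2 groups alone, and 31 to 300 without single arrays. For daf-2 against N2 it was 2952, with 1636 under median centring, 5027 with the block, 4959 with a random set, 788 with sets A and 1, 850 with sets B and 1, and 1609 to 3140 without single arrays.

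The differences that turned sign are given here with their ranges without single arrays. For 3 h against 15 °C they were pal-1 (−0.30 to 0.11 without single arrays, above 0 without the set B array at 3 h), elt-7 (−0.03 with median centring, −0.02 with sets B and 1, −0.06 to 0.10 without single arrays, below 0 without the set A array at 15 °C), end-3 (−0.35 to 0.21, above 0 without the set A array at 3 h, the set B array at 3 h or the set 1 array at 15 °C) and pha-4 (−0.37 as the mean over probes, −0.64 and −0.59 by its other probes, −0.06 to 0.24 without single arrays, below 0 without the set A array at 15 °C). For 12 h against 15 °C end-3 gave 0.0 with sets A and 1 and −0.06 to 0.43 without single arrays, below 0 without the set B array at 15 °C or the set 1 array at 12 h. For daf-2 against N2 they were end-1 (−0.01 with quantile normalization), tbx-37 (0.06 with sets A and B, −0.54 to 0.02 without single arrays, above 0 without the set 1 array of daf-2) and tbx-38 (0.02 with the series table, 0.45 with sets A and B, −0.34 to 0.28 without single arrays, above 0 without the set 1 array of daf-2 or N2).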
